A study of Homo sapiens with 16 samples.

Results

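FKBP5, ZBTB16, PER1, TSC22D3, SGK1 and KLF9 are genes known from other studies to respond to both androgens and glucocorticoids, and NR3C1 encodes the glucocorticoid receptor itself. These 7 genes were chosen by name, and each matched 1 of the 60605 Ensembl gene identifiers counted in the series. Receptor binding was not measured here. On hg38, RefSeq places FKBP5 at chr6:35573590-35728583, ZBTB16 at chr11:114059711-114256770, TSC22D3 at chrX:107713221-107775988 and KLF9 at chr9:70384604-70414657. The assay was PRO-seq, in which polymerases engaged on the genome are marked by the nascent RNA they extend in isolated nuclei, and the cells were LNCaP, an established line from a prostate cancer that responds to androgens. The series holds 16 libraries in 2 batches and 6 groups, with 2 replicates in each group. In batch 1 the groups were mock and 6 Gy of ionizing radiation (IR), and neither a vehicle nor a time after IR is given for them. In batch 2 the cells had 90 min of DMSO vehicle or 10 µM enzalutamide, and each was studied without IR and with 6 Gy given after 30 min and followed by 60 min of recovery. All groups were grown in DMEM:F12 with serum, and neither removal of steroids nor an added hormone is stated for any of them.

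Of the steroid receptor family, the androgen and glucocorticoid receptors sit largely in the cytoplasm on HSP90 and its co-chaperones until a hormone binds. With hormone they enter the nucleus and bind DNA at paired copies of a short hexamer. Several receptors of the family, the glucocorticoid receptor among them, read nearly the same sequence, so androgens and glucocorticoids share many target genes, and in prostate cancer the glucocorticoid receptor can keep part of the androgen program active under antiandrogens. Enzalutamide is such an antiandrogen. Among the members, FKBP5 encodes an HSP90 co-chaperone that lowers the glucocorticoid receptor's affinity for hormone in a feedback loop. ZBTB16 (PLZF) is a zinc finger transcriptional repressor, PER1 a repressor of the circadian clock, TSC22D3 (GILZ) an anti-inflammatory leucine zipper protein, SGK1 a kinase that controls ion transport and survival, and KLF9 a Krüppel-like transcription factor.

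The start-site sequences come from RefSeq (GRCh38.p14, the hg38 build the submitters' processing notes name). They held 18 entries for 6 of the 7 genes, each with 250 bases before the start and 50 after it; ZBTB16 had none. The receptor hexamer TGTTCT was searched on both strands, where it reads AGAACA on the other. It was found in 2 of the 18 member entries, and in 14.8% of all 35116 promoters of that length. The 30 bases around these 2 matches are shown 5′ to 3′ on the gene's strand, with the hexamer in capitals, because it is the element that the glucocorticoid receptor and its close relatives read.

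FKBP5, minus strand, chr6:35728566-35728595: caccactaccccAGAACAaactcctacctc

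SGK1, minus strand, chr6:134177839-134177868: ggggttcataacAGAACAgggatagccgtc

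In FKBP5 the match began at base 1 after the start of its first entry, and in SGK1 at base 6 after the start of its second entry. The full 15-base palindrome of paired hexamers, searched with a spacer of 3 free bases, was in 0 of the 18 entries and in 0.00285% of all promoters. The E-box CACGTG, the element of clock factors, was in 2 of 18 entries (FKBP5 and PER1), against 7.26% of all promoters. TATAAA was in 5 of 18 entries against 11.5%, and CCAAT was in 7 of 18 against 34.6%. The 250 bases before the start are given for KLF9 and for the third entry of TSC22D3, which both fell in the test of IR over both batches. Capitals mark CCAAT, here read on the other strand, in KLF9, and TATAAA in TSC22D3.

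KLF9, minus strand, chr9:70414658-70414907: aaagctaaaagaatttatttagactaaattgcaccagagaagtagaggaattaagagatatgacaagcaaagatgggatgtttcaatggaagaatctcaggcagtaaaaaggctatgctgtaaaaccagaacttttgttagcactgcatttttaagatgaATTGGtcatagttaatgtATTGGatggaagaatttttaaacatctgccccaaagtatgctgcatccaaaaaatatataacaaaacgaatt

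TSC22D3, minus strand, chrX:107717063-107717312: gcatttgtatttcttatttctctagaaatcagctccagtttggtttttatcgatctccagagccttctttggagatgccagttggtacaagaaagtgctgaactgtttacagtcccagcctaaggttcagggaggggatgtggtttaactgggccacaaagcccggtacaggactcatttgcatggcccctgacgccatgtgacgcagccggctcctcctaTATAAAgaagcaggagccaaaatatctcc

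These matches describe the letters of the window. Known receptor sites of several of these genes lie in introns or far from the start, and such regions were not searched.

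Total counts were 8022989 to 16851473 per replicate in batch 1 and 10494563 to 19905824 in batch 2. Levels below are CPM, counts scaled to library size, after TMM scaling within a batch. The batches were scaled separately, so levels are compared within a batch only. The 8 luminal prostate markers reported here were all expressed. Their sum was 1557 to 1591 CPM in mock and 1332 to 1386 CPM in irradiated cells of batch 1. In batch 2 it was 1386 to 1484 CPM in vehicle cells, 1198 to 1320 CPM with IR, 1088 to 1166 CPM with enzalutamide and 1031 to 1151 CPM with both, so the sum was lower in each treated group. KLK3, KLK2, TMPRSS2 and SLC45A3 are in this list and in that of androgen-induced genes. Basal markers (KRT5, KRT14, TP63) summed to 4.36 to 8.96 CPM, fibroblast markers to 9.58 to 14.8 CPM, of which COL1A1 alone made 6.93 to 10.6, and all 4 blood markers were under 1 CPM in every sample. KLK3, the PSA gene, was at 179 ± 2.01 CPM in mock cells of batch 1 and at 15.2 ± 2.55 CPM in vehicle cells of batch 2 (SD, n = 2 each). The other genes of both lists were not lower in vehicle cells: mean CPM in mock and vehicle cells was 169 and 213 for KLK2, 410 and 474 for TMPRSS2, and 63.2 and 74.2 for SLC45A3. KRT8 (116 and 58.1) and KRT18 (78.7 and 33.3) were lower in vehicle cells. With the separate scaling, these differences between batches were not tested. The labels do not say what separates these batches beyond the treatments.

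Batch 1 holds t1 and t2 libraries under each replicate number, which the labels do not explain, and their counts were summed for each replicate. The t1 and t2 libraries did not give the same IR effect. The t2 effect minus the t1 effect was tested with edgeR's quasi-likelihood test, chosen after the values were seen. Each of the 8 libraries entered as a sample, with no term for the replicate number that t1 and t2 share. In this test 43.7% of all genes tested had an adjusted p under 0.05. ZBTB16 is an example: in t1 it was at 857 and 882 CPM in mock and 529 and 530 CPM in irradiated cells, while in t2 it was at 584 and 549 CPM in mock and 726 and 647 CPM in irradiated cells. The groups are separated in both kinds of library, but in opposite directions. CDKN1A, a p53 target, had an IR effect of 3.88 (log2) in t1 and 3.43 in t2, so it was higher after IR in both kinds. Batch 1 values of the 7 genes are therefore also given for t1 and t2.

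Levels were compared between genes per kilobase of the RefSeq gene span, since longer genes collect more reads. The counted region is not given, so levels per kb assume that reads were counted over the whole span. In vehicle cells KLF9 was at 4.17 ± 0.187 and ZBTB16 at 4.1 ± 0.063 CPM per kb (SD, n = 2 each), and their samples overlapped. PER1 followed at 3.48 ± 0.0162 CPM per kb, below both. FKBP5 (0.999 ± 0.0745) and TSC22D3 (0.954 ± 0.111) formed the next pair, whose samples overlapped. SGK1 was at 0.188 ± 0.00773 CPM per kb, and NR3C1 was lowest at 0.0274 ± 0.00044 CPM per kb. RefSeq places a 19750-base lncRNA across 65.7% of KLF9, and reads from overlapping genes cannot be told apart here, so the level of KLF9 is uncertain. The gene lengths run from 11.93 kb (PER1) to 197.1 kb (ZBTB16), and polymerase held near a start counts more per kb in a short gene.

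**Figure D1:**
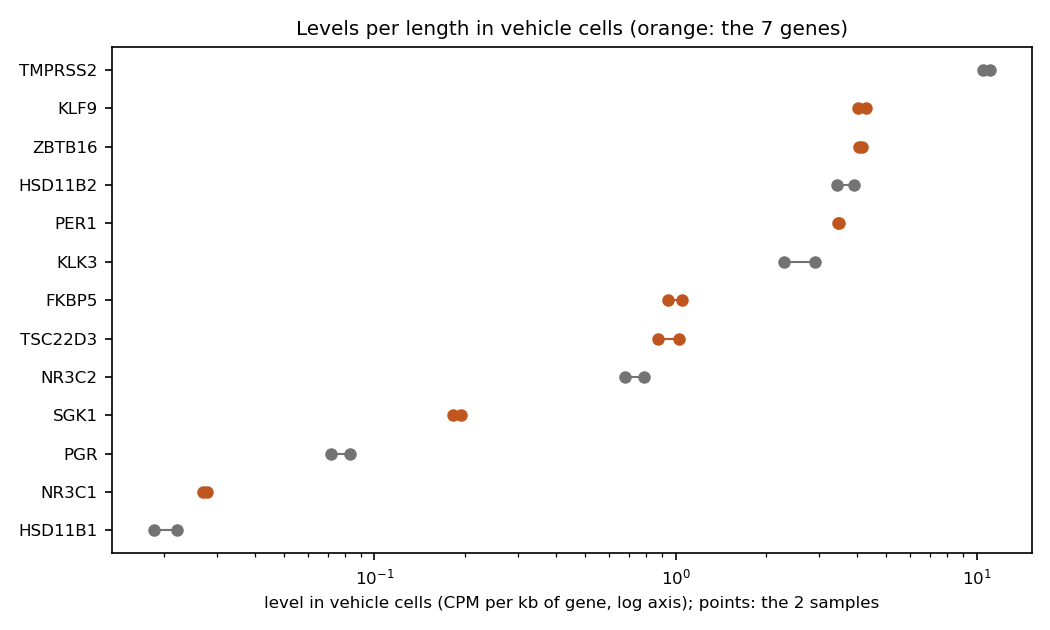
Level per kb of RefSeq gene span in vehicle cells on a log axis, with a point for each of the 2 samples and the 7 genes in orange. NR3C1 sits near 0.0274 CPM per kb, and KLF9 and ZBTB16 overlap near 4.17 and 4.1.

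Other receptors of the family were measured beside NR3C1. NR3C2, the mineralocorticoid receptor, was at 0.734 ± 0.0742 CPM per kb in vehicle cells. PGR, the progesterone receptor, was at 0.0772 ± 0.00778 CPM per kb. ESR1 and ESR2, the estrogen receptors, were at 0.0284 ± 0.000177 and 0.242 ± 0.0188 CPM per kb. NR3C1 was below NR3C2, PGR and ESR2 and close to ESR1. It had 29 to 85 reads per sample. In CPM, NR3C1 was at 3.61 and 3.28 in mock and 3.22 and 3.10 in irradiated cells of batch 1. In batch 2 it was at 4.26 and 4.36 CPM in vehicle cells, 2.17 and 3.40 with IR, 2.84 and 5.17 with enzalutamide, and 3.71 and 2.92 with both. The enzalutamide samples span the vehicle samples, and the irradiated vehicle samples lie below them. RefSeq lists a pseudogene, RPL7P21, over 9.01% of NR3C1, so reads of NR3C1 and of the pseudogene cannot be told apart there. HSD11B2, which inactivates cortisol, was at 3.69 ± 0.343 CPM per kb in vehicle cells and HSD11B1, which regenerates it, at 0.0203 ± 0.00256.

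Enzalutamide was compared with vehicle to ask which of these targets change under an antiandrogen within 90 min. ZBTB16 fell, and it was the only member that passed the test. In batch 2 it was at 800 and 817 CPM in vehicle cells and 428 and 423 CPM with enzalutamide. With IR it was at 648 and 653 CPM, and 390 and 392 CPM with enzalutamide and IR. The enzalutamide samples lie far below their controls in both settings. In such whole-culture libraries, fewer transcribing cells and less transcription per cell cannot be told apart. Without IR the log2 fold change was -0.93 ± 0.087 (SE; edgeR adjusted p = 0.00298), the smallest p of all 28651 genes tested. With IR it was -0.74 ± 0.087 (edgeR adjusted p = 0.0133). Averaged over IR it was -0.83, with a 95% interval from -0.96 to -0.70 (edgeR adjusted p = 1.91e-05), which is 43.8% lower. The luminal marker sum was lower in the same samples, and its part in the result was not tested. Averaged over IR, 5 of 8 markers had a negative and 3 a positive log2 fold change, with 2 called lower. With the replicate number as a block, 4 were called lower and 1 higher. The markers outside the androgen-induced list did not all fall. Without IR, mean CPM in vehicle and in enzalutamide cells was 147 and 168 for HOXB13 and 421 and 391 for FOXA1. It was 58.1 and 63.0 for KRT8, and 33.3 and 34.5 for KRT18. The call without IR held under every alternative. The call with IR was lost on leaving out any 1 sample of the 2 groups compared, although the fold change stayed between -0.75 and -0.72.

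**Figure D2:**
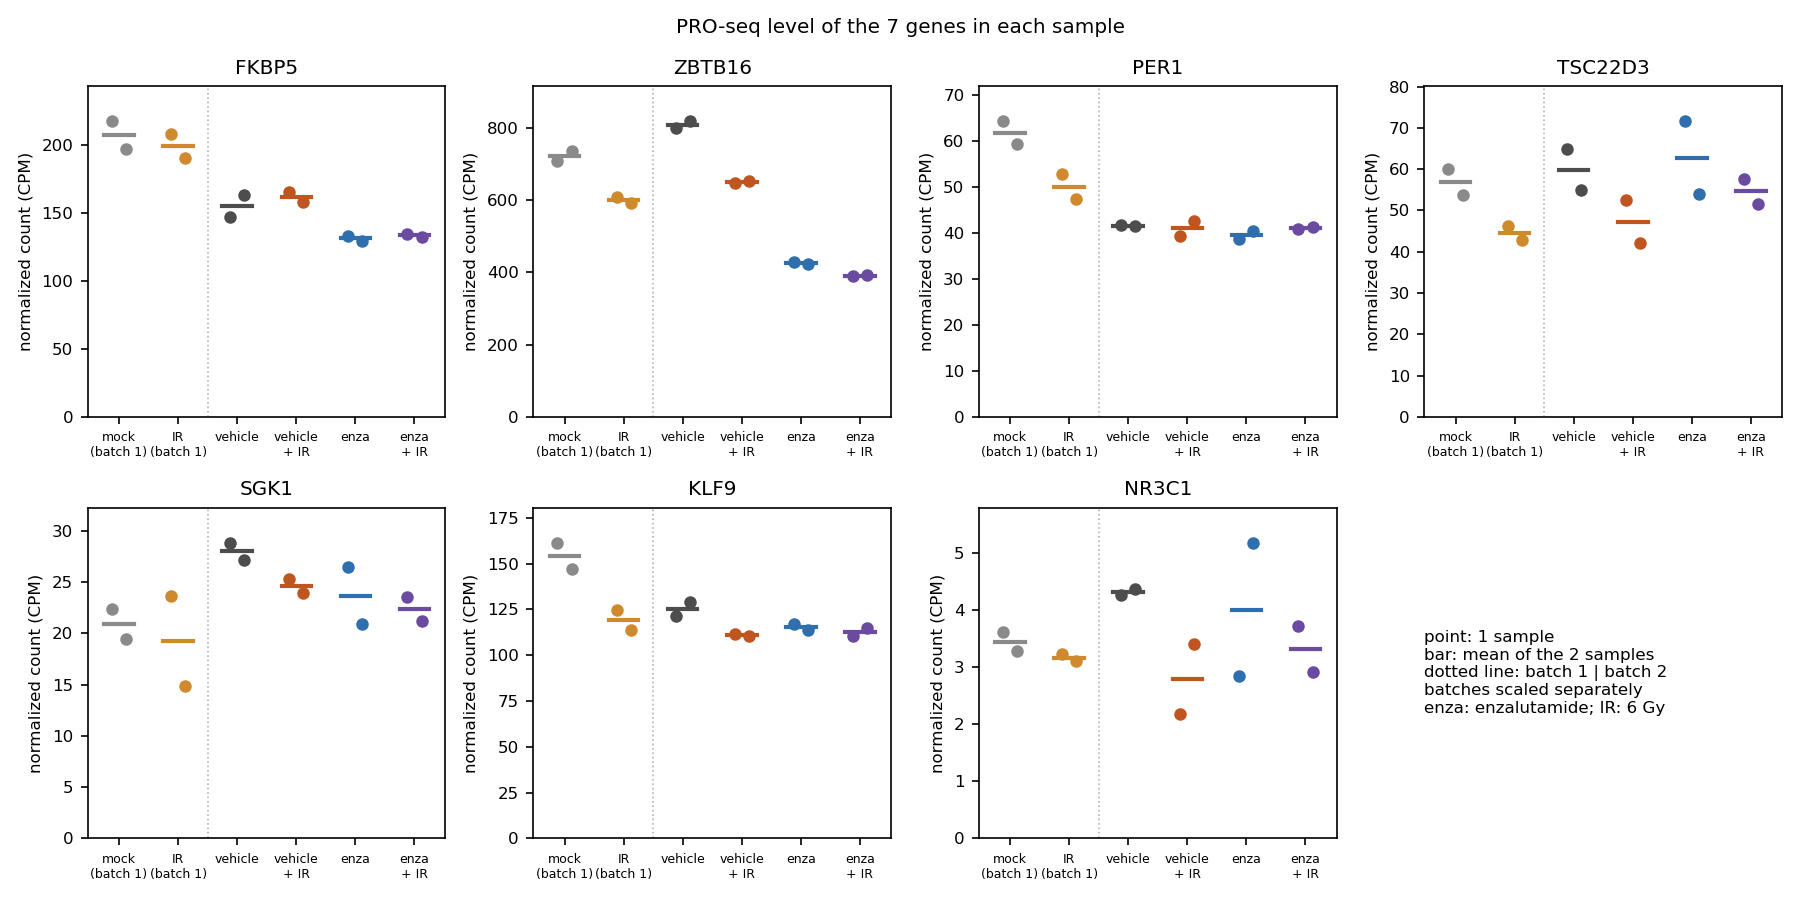
Normalized count (CPM) of the 7 genes in each of the 12 samples, by group, with a bar at the mean of the 2 samples and batch 1 left of the dotted line. ZBTB16 drops from 808 CPM in vehicle to 426 CPM with enzalutamide, while the PER1 samples of batch 2 stay between 38.7 and 42.7 CPM.

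The share of all genes called was 0.0105% without IR, 0.0105% with IR and 0.0628% averaged over IR, and all of these calls were lower with enzalutamide. Against these, 1 of 7 members was called in each. The samples of 2 groups did not overlap, with enzalutamide lower, for 5 members without IR (FKBP5, ZBTB16, PER1, SGK1 and KLF9), where 12.4% of all genes did the same. With IR this held for 3 members (FKBP5, ZBTB16 and SGK1), against 15.5% of all genes.

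FKBP5 was lower with enzalutamide in every pair of groups but by less. It was at 147 and 163 CPM in vehicle cells and 133 and 129 CPM with enzalutamide. With IR it was at 165 and 158 CPM, and 135 and 132 CPM with enzalutamide and IR. All 4 enzalutamide samples lie below all 4 controls. The log2 fold change was -0.24 ± 0.0856 without IR (edgeR adjusted p = 1.00), -0.28 ± 0.086 with IR (edgeR adjusted p = 1.00) and -0.26 ± 0.0546 averaged over IR (edgeR adjusted p = 0.22). The averaged 95% interval ran from -0.37 to -0.14. The averaged test passed once the replicate number entered as a block (edgeR adjusted p = 0.00503, where 0.949% of all genes were called). It also passed without the filter on low counts, where 230 of 54974 genes were called, and with DESeq2, where 56 of 54974 were.

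The other 5 members had no call for enzalutamide in any setting run. SGK1 was at 28.8 and 27.2 CPM in vehicle cells, 26.4 and 20.9 CPM with enzalutamide, 25.3 and 23.9 CPM with IR, and 23.6 and 21.2 CPM with both. Its averaged log2 fold change was -0.19 (95% interval -0.37 to -0.00063). PER1 stayed between 38.7 and 42.7 CPM over all 8 samples of batch 2, with an averaged log2 fold change of -0.04 (-0.17 to 0.09). For KLF9 the averaged value was -0.05 (-0.17 to 0.07). TSC22D3 had a positive value, 0.14 (-0.07 to 0.35), and NR3C1 0.02 (-0.44 to 0.48). The intervals of PER1 and KLF9 leave room for a change of about 0.17 on the log2 scale, far less than the change of ZBTB16, and that of NR3C1 leaves room for much more.

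**Figure D3:**
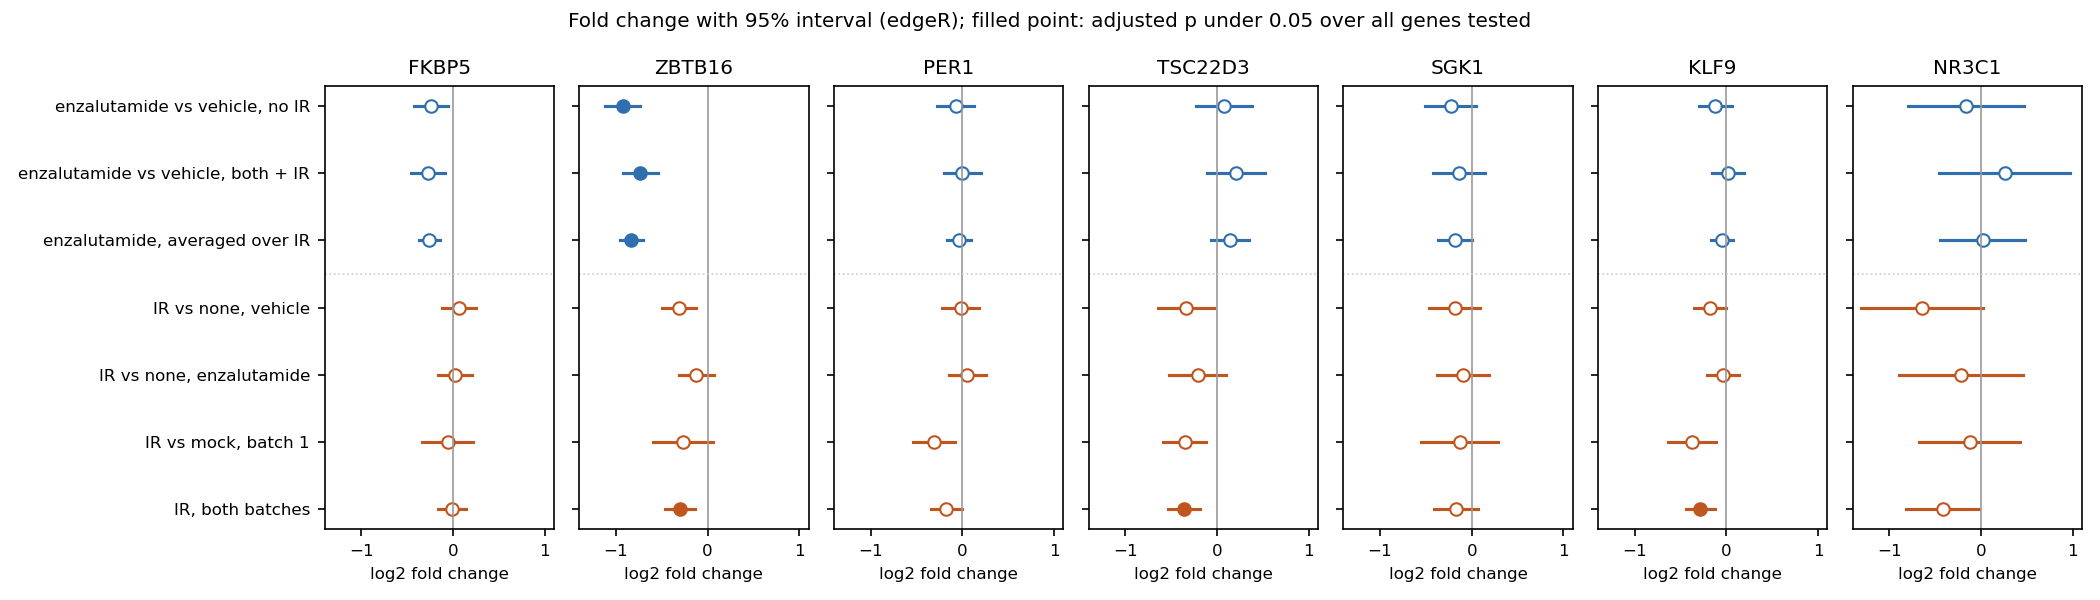
Log2 fold change with its 95% interval for each gene, enzalutamide comparisons in blue and IR comparisons in orange, filled where the adjusted p over all genes was under 0.05. ZBTB16 is filled in all 3 enzalutamide rows, and ZBTB16, TSC22D3 and KLF9 are filled in the row for IR over both batches.

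Other genes of the 2 hormone responses were read from lists written from general knowledge. Of 18 other androgen-induced genes tested, 5 fell with enzalutamide averaged over IR and none rose, and with the replicate block 13 fell; their median log2 fold change was -0.38, against 0.00074 over all genes. TMPRSS2, a membrane protease, had -0.58 ± 0.0622, SLC45A3, a solute carrier of luminal cells, -0.57 ± 0.0562, ELL2, an elongation factor, -0.44 ± 0.0553, and PMEPA1, an inhibitor of TGF-beta signalling, -0.53 ± 0.0768 (edgeR adjusted p = 0.00123, 0.000829, 0.00512 and 0.0165). TMPRSS2 was at 459 and 488 CPM in vehicle cells and 293 and 294 CPM with enzalutamide. KLK3 had -0.66 ± 0.212 (edgeR adjusted p = 0.69, and 0.00204 with the replicate block), and its reads may be shared with its close copy KLK2. Of 22 other glucocorticoid-induced genes tested, 0 were called by edgeR and 2 were called lower with the replicate block. At an unadjusted p under 0.05 there were 4, all lower, where 1780 of 28651 genes passed. The median of this list was -0.04. For both lists, the share of all genes called was 0.0628% by edgeR and 0.949% with the replicate block. The difference between the lists was not tested. NR3C2 had -0.29 ± 0.0709 (edgeR adjusted p = 0.38), and passed with the replicate block (edgeR adjusted p = 0.00185).

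IR was compared with no IR in vehicle cells and in enzalutamide-treated cells. No member was called in either by edgeR, where 1.1% and 0.918% of all genes were. At an unadjusted p under 0.05 there were 3 members in vehicle cells and 0 in enzalutamide-treated cells. Of all 28651 genes, 3161 and 2720 passed that threshold. DESeq2 called 1 and 0 members, where it called 380 and 317 of 54974 genes. In vehicle cells ZBTB16 had a log2 fold change of -0.31 ± 0.0865 (edgeR adjusted p = 0.15), from 800 and 817 CPM to 648 and 653 CPM. TSC22D3, from 64.8 and 54.9 CPM to 52.4 and 42.1 CPM, had -0.34 ± 0.143 (edgeR adjusted p = 0.41). Both samples with IR were lower for each gene. With the replicate block both were called (edgeR adjusted p = 0.0168 for ZBTB16 and 0.00968 for TSC22D3), where 4.59% of all genes were. The samples of 5 members were lower with IR and did not overlap (ZBTB16, TSC22D3, SGK1, KLF9 and NR3C1), against 22.8% of all genes. For comparison, CDKN1A rose by 3.02 ± 0.174 (edgeR adjusted p = 5.5e-07).

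In enzalutamide-treated cells ZBTB16 went from 428 and 423 CPM to 390 and 392 CPM, a log2 fold change of -0.12 ± 0.087 (edgeR adjusted p = 0.70). TSC22D3 had -0.21 ± 0.143 and KLF9 -0.04 ± 0.0819. FKBP5 had 0.02 ± 0.0862. Of the 7 genes, ZBTB16 was the 1 member lower without overlap, against 19.5% of all genes, and PER1 the 1 member higher without overlap, against 18.6%. The interaction of enzalutamide and IR was tested directly. It called 0 members and 0% of all genes by edgeR, and 0 members and 0 of 54974 genes by DESeq2. At an unadjusted p under 0.05 there were 0 members, where 343 of 28651 genes passed. For ZBTB16 the difference in the IR effect was 0.19 (95% interval -0.08 to 0.46), and for FKBP5 it was -0.04 (-0.30 to 0.22). For the other 5 members it lay between 0.07 (PER1) and 0.42 (NR3C1), with every interval across 0.

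In batch 1 irradiated cells were compared with mock cells. In the summed libraries all 7 members had a negative log2 fold change, as did 50.4% of all genes. With t1 alone FKBP5, TSC22D3, SGK1 and NR3C1 were not negative. In the summed libraries none of the 7 was called by edgeR, where 2.82% of all genes were. There were 3 members at an unadjusted p under 0.05, where 2969 of 25889 genes passed. DESeq2 called 0 members, where it called 564 of 50371 genes. KLF9 was at 161 and 147 CPM in mock and 125 and 114 CPM in irradiated cells, a log2 fold change of -0.37 ± 0.12 (edgeR adjusted p = 0.18). It was negative in both kinds of library, at -0.30 in t1 and -0.45 in t2. TSC22D3 was at 60.1 and 53.6 CPM in mock and 46.2 and 42.8 CPM in irradiated cells (-0.35 ± 0.108, edgeR adjusted p = 0.14). Its value was -0.99 in t2 and 0.15 in t1. PER1 was at 64.3 and 59.4 CPM in mock and 52.8 and 47.3 CPM in irradiated cells (-0.31 ± 0.107, edgeR adjusted p = 0.22), with -0.08 in t1 and -0.55 in t2.

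The remaining 4 members of batch 1 were not called by edgeR in the summed libraries without the block either. ZBTB16 was at 707 and 734 CPM in mock and 607 and 593 CPM in irradiated cells (-0.26 ± 0.15, edgeR adjusted p = 0.58), with -0.69 in t1 and 0.28 in t2. SGK1 was at 22.4 and 19.4 CPM in mock and 23.6 and 14.9 CPM in irradiated cells (-0.13 ± 0.194, edgeR adjusted p = 0.89), with 0.44 in t1 and -0.86 in t2. FKBP5 was at 217 and 197 CPM in mock and 208 and 191 CPM in irradiated cells (-0.06 ± 0.128, edgeR adjusted p = 0.93), with 0.00 in t1 and -0.07 in t2, and NR3C1 had -0.12 ± 0.254, with 0.05 in t1 and -0.27 in t2. With the replicate block ZBTB16, PER1, TSC22D3 and KLF9 were called (edgeR adjusted p = 0.0406, 0.00688, 0.00221 and 0.000815), where 9.01% of all genes were. The t1 libraries alone called ZBTB16, where 3995 of 23134 genes were called. The t2 libraries alone called PER1, TSC22D3, SGK1 and KLF9, where 9800 of 21930 genes were called. The samples of 5 members (ZBTB16, PER1, TSC22D3, KLF9 and NR3C1) were lower without overlap, against 19.7% of all genes.

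**Figure D4:**
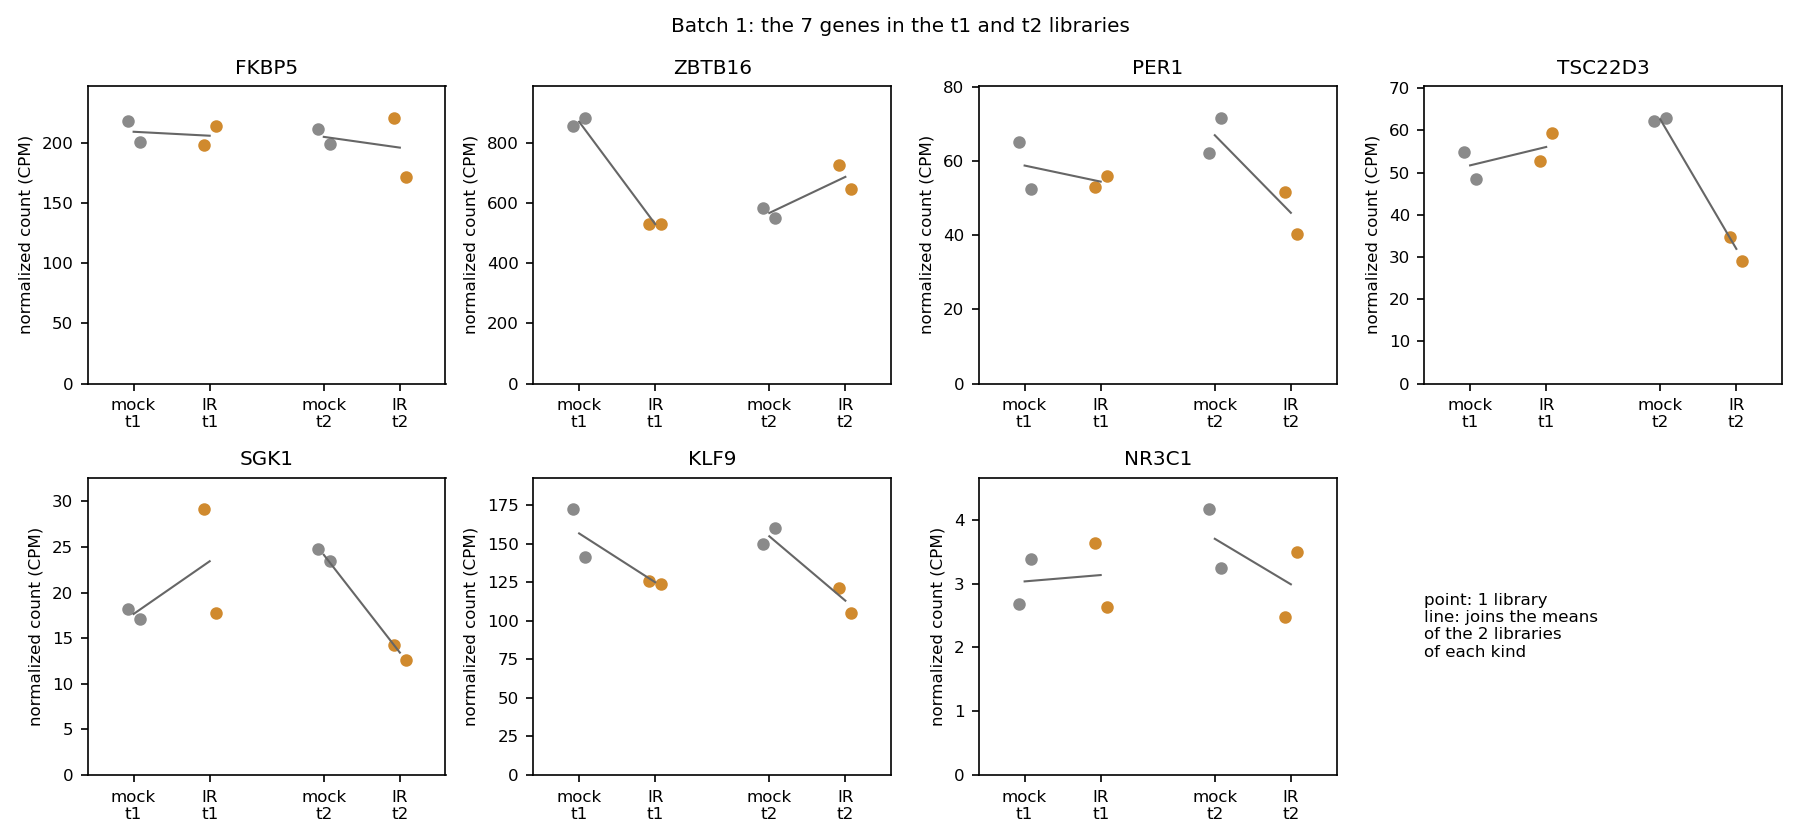
Normalized count (CPM) of the 7 genes in the 8 libraries of batch 1, mock and irradiated, t1 left and t2 right, with a line between the means of 2 libraries. The lines of ZBTB16, TSC22D3 and SGK1 slope in opposite directions in t1 and t2, and those of KLF9 slope down in both.

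With vehicle and mock as controls and batch as a term, IR was tested over both batches. The time after IR was 60 min in batch 2 and is not given for batch 1. ZBTB16 fell by 0.30 ± 0.0786 on the log2 scale (edgeR adjusted p = 0.0325), TSC22D3 fell by 0.36 ± 0.0838 (edgeR adjusted p = 0.0152) and KLF9 fell by 0.28 ± 0.0738 (edgeR adjusted p = 0.0309). These 3 of 7 members compare with 4.05% of all genes, and with the replicate block the same 3 were called, against 6.69% of all genes. The values use the controls of the comparisons above and are not independent of them. PER1 had -0.17 ± 0.0802 (edgeR adjusted p = 0.29), SGK1 -0.17 ± 0.113 (0.49), NR3C1 -0.42 ± 0.19 (0.28) and FKBP5 -0.01 ± 0.0742 (0.97). DESeq2 called ZBTB16 alone among the 7 genes, where it called 1153 of 54709 genes. TSC22D3 alone was called with RLE factors (1237 of 29195 genes) and with no filter (1429 of 54709 genes). Reads of KLF9 and of the lncRNA across it cannot be told apart. Leaving out any 1 of the 8 samples left 0 or 1 of the 3 calls. With t1 as the batch 1 libraries none of the 3 was called, and with t2 only TSC22D3 was, where ZBTB16 had -0.02.

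The IR effect in batch 1 minus that in batch 2 called 0 members by edgeR, where 0.106% of all genes were called. There was 1 member at an unadjusted p under 0.05 (PER1, -0.31 ± 0.144), where 1651 of 29195 genes passed. DESeq2 called 0 members, where it called 22 of 54709 genes. With the t2 libraries alone, ZBTB16, PER1, TSC22D3 and SGK1 were called, where 5646 of 27773 genes were called.

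The gene lists were read for IR over both batches in the same way, where 4.05% of all genes were called, and 6.69% with the replicate block. Of 22 other glucocorticoid-induced genes, 2 were called: GLUL, glutamine synthetase, rose by 0.64 ± 0.0899 and BCL6, a repressor, fell by 0.45 ± 0.0832 (edgeR adjusted p = 7.94e-05 and 0.00161). With the block 1 rose and 5 fell, and the list's median was -0.09 against -0.02 over all genes. In batch 1 GLUL had 0.83 in t1 and 0.14 in t2, and BCL6 -0.55 and -0.71. Of 18 androgen-induced genes, KLK3, SLC45A3, TRPM8 and TMPRSS2 fell and PMEPA1, named after its value was seen, rose; with the block 9 fell and 1 rose. These calls rest on libraries whose effects differed. In batch 1 KLK3 had -0.67 in t1 and 0.09 in t2, TMPRSS2 -0.75 and 0.23, TRPM8 -0.93 and 0.15, SLC45A3 -0.57 and -0.09, and PMEPA1 0.07 and 0.80. The difference between t1 and t2 passed for each of these 5 genes and for GLUL (edgeR adjusted p from 0.000399 for TRPM8 to 0.0271 for SLC45A3). Among 15 genes of HSP90, HSP70 and their co-chaperones, BAG1 rose by 0.30 ± 0.0776 (edgeR adjusted p = 0.0298), with 0.16 in t1 and 0.43 in t2, and 2 rose with the block. None of 11 coregulators passed (edgeR, 2 at an unadjusted p under 0.05), and 1 rose with the block.

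The genes most like ZBTB16 and FKBP5 were looked for among 15154 other genes with at least 50 counts on average in each batch. Likeness was the root mean square difference over the 6 group means of log2 CPM, each centred within its batch, and is a description over 6 points that share libraries. For ZBTB16 the 5 nearest were KLK2 (0.0501), KLK3 (0.0788), MBOAT2 (0.0914), MAOA (0.0989) and TMPRSS2 (0.103). For FKBP5 they were PPP1R15B (0.012), ZNF503 (0.0209), USP43 (0.0219), RAB4A (0.0229) and ADCY10 (0.0269). MBOAT2 is a lysophospholipid acyltransferase and MAOA a monoamine oxidase. The profiles include the enzalutamide groups, so genes near ZBTB16 had to be lower there. Group means also hide the spread of replicates. KLK2 was at 250 and 175 CPM in vehicle cells and 160 and 78.5 CPM with enzalutamide (edgeR adjusted p = 0.55 averaged over IR). None of the 5 genes near FKBP5 was called for enzalutamide averaged over IR (edgeR adjusted p from 0.16 to 0.78). FKBP5 moved less than ZBTB16, so their distances are not compared.

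**Figure D5:**
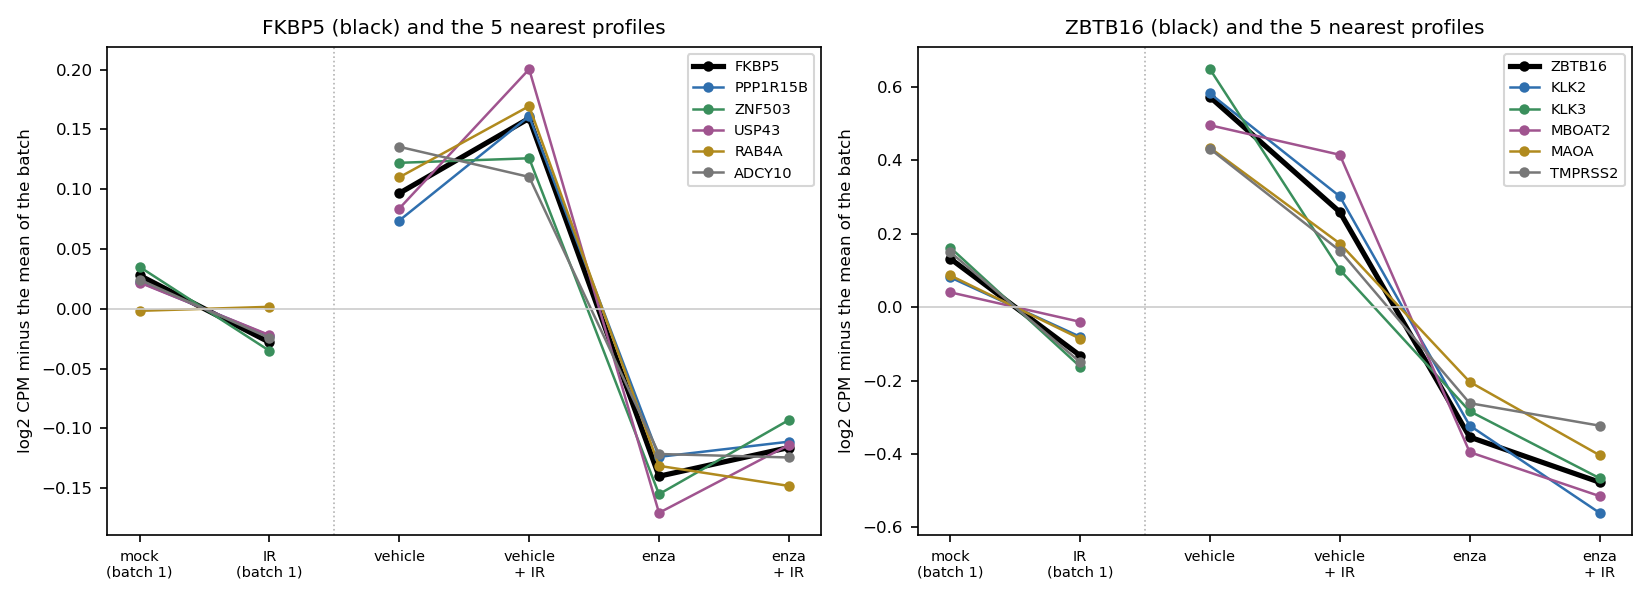
Group means of log2 CPM, each centred on the mean of its batch, for FKBP5 and ZBTB16 in black and their 5 nearest genes in colour. ZBTB16 runs from 0.57 in vehicle to -0.48 with enzalutamide and IR, and FKBP5 from 0.16 with IR to -0.14 with enzalutamide.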

How the data were processed

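PRO-seq was run on 16 LNCaP libraries. The authors deposited raw read counts per Ensembl gene for each batch; the unit was taken from the values, all whole numbers with unequal library totals. The submitters' processing notes name hg38, cutadapt 1.8.1, Bowtie2 2.4.4 and SAMtools 1.9. Counting tool, annotation, counted region and strand are not given in the sources used here.

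From the counts, t1 and t2 of a batch 1 replicate were summed, genes were kept by filterByExpr, scaled by TMM and tested with edgeR 4.0.16 (glmQLFit, glmQLFTest, two-sided) in R 4.3.3, with Benjamini-Hochberg adjustment over all genes and a threshold of 0.05. SEs come from the F statistic. The members, the gene lists, the rule for named genes (all members, NR3C2 and PGR, treatment references, at most 4 genes past the threshold per list by smallest p, nearest profiles) and the tests were chosen with earlier results of these data known. ESR1 and ESR2 were named outside the rule, after their levels were seen. The lists hold 1 gene that matched no single identifier. Some genes of the lists are not reported here. DESeq2 1.42.0, other scalings, no filter, the replicate block and left-out samples were alternatives. The steps were tested on simulated data.

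Groups of a batch share replicate numbers in the labels. Same-numbered samples deviated together, with correlations across genes of 0.245 in batch 1 and 0.162 to 0.333 in batch 2, so the block is printed where it changes a call of a member or a list count given. Nothing says whether replicates were separate cultures, so p-values measure the spread between these samples. Replicates differed by more than sampling noise (chi-square per degree of freedom 3.47 to 6.72).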

Additional observations from a re-analysis of the deposited data

Results flagged for a closer look

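In batch 1 the IR effect differed between the t1 and t2 libraries for 3 of the 7 genes. This was edgeR's test of the t2 effect minus the t1 effect, chosen after the values were seen. It took each library as a sample, although t1 and t2 share a replicate number. The difference was 0.96 ± 0.21 (log2, SE) for ZBTB16, -1.14 ± 0.19 for TSC22D3 and -1.31 ± 0.301 for SGK1 (edgeR adjusted p = 0.00206, 0.000313 and 0.00289). ZBTB16 was lower after IR in t1 (-0.69) and had 0.27 in t2, while TSC22D3 and SGK1 were lower in t2 (-0.99 and -0.87). The other 4 did not pass: PER1 had -0.48, KLF9 -0.16, NR3C1 -0.33 and FKBP5 -0.07. TMPRSS2 differed by 0.99 (edgeR adjusted p = 0.00152). In the same test 43.7% of all genes were called, so a count of 3 of 7 is near the share over all genes. The labels give no meaning for t1 and t2, and the cause was not tested.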

How the results depend on the processing

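Over all alternatives, 742 of 861 values of single genes kept their direction and their side of the threshold, 34 lost a call, 21 gained one and 64 changed sign. A value that changed sign was counted as a sign change only, also where it gained a call. The sign changes all concern values that were not called in the reported fit. SGK1 for batch 1 minus batch 2 changed sign and was called with t2 alone (edgeR adjusted p = 0.0207). For enzalutamide without IR, ZBTB16 alone was called in every alternative (log2 fold change -0.94 to -0.91), and averaged over IR it was called in every alternative (-0.86 to -0.81), joined by FKBP5, for 2 members, with no filter, with the replicate block and with DESeq2. For enzalutamide with IR, 0 to 1 members were called on leaving out 1 sample.

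For IR in vehicle cells the count went from 0 to 1 with total counts, 2 with the replicate block and 1 with DESeq2. In batch 1 it went from 0 to 4 with the replicate block, 1 with t1 alone, 4 with t2 alone and 0 to 2 on leaving out 1 sample (2 without mock replicate 2). Over both batches it went from 3 to 1 with RLE factors, no filter, DESeq2 or t2 alone, 0 with t1 alone, and 0 to 1 on leaving out 1 sample. For batch 1 minus batch 2 it was 4 with t2 alone, where 5646 of 27773 genes were called. For IR in batch 1, 3995 of 23134 genes were called with t1 alone and 9800 of 21930 with t2 alone. The replicate block changed no other call among the 7 genes; counts over the gene lists with the block stand beside those without it.

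Some sign changes were large. With t1 alone, IR in batch 1 gave TSC22D3 0.15 (-0.35 with t1 and t2 summed), SGK1 0.44 (-0.13), FKBP5 0.0022 and NR3C1 0.047, and with t2 alone it gave ZBTB16 0.28 (-0.26). PER1 for enzalutamide with IR, near 0 in the reported fit, was 0.000855 with RLE factors, 0.019 with total counts, 0.00013 with the replicate block and 0.00082 with DESeq2. PER1 for IR in vehicle cells was 0.0042 with DESeq2. FKBP5 for IR over both batches was 0.020 with RLE factors, 0.036 with no filter, 0.031 with DESeq2 and 0.00810 with t1 alone, and SGK1 was 0.052 with t1 alone. For batch 1 minus batch 2, ZBTB16 was -0.029 with RLE factors, -0.045 with DESeq2 and -0.41 with t1 alone, TSC22D3 was 0.028 with total counts and 0.46 with t1 alone, and SGK1 was -0.023 with RLE factors, -0.033 with DESeq2 and -0.67 with t2 alone.

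Leaving out 1 sample also moved values across 0. For enzalutamide without IR the ranges were -0.15 to 0.26 for TSC22D3 and -0.60 to 0.26 for NR3C1. For enzalutamide with IR they were -0.056 to 0.052 for PER1, -0.018 to 0.058 for KLF9 and -0.042 to 0.60 for NR3C1, and averaged over IR -0.14 to 0.26 for NR3C1. For IR in vehicle cells they were -0.013 to 0.14 for FKBP5 and -0.077 to 0.040 for PER1. For IR in enzalutamide-treated cells they were -0.39 to 0.021 for TSC22D3, -0.24 to 0.10 for SGK1, -0.062 to 0.018 for KLF9 and -0.64 to 0.22 for NR3C1. For the interaction they were -0.12 to 0.039 for FKBP5, -0.050 to 0.36 for TSC22D3, -0.054 to 0.29 for SGK1 and -0.0013 to 0.86 for NR3C1. For IR in batch 1 they were -0.13 to 0.012 for FKBP5 and -0.48 to 0.17 for SGK1, and over both batches -0.034 to 0.061 for FKBP5. For batch 1 minus batch 2 they were -0.015 to 0.061 for ZBTB16, -0.23 to 0.13 for TSC22D3 and -0.31 to 0.32 for SGK1. The causes were not tested.

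By CPM without length the order in vehicle cells differed: ZBTB16 ranked 1, FKBP5 2 and KLF9 3, and NR3C1 stayed at 7. NR3C1, with 29 to 85 reads per sample, had the widest interval of the 7 in each comparison. A fit without 1 sample leaves an arm with 1 sample, which is assumed to vary like the other groups.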
